A study of Mus musculus with 2 samples.

Results

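Myc encodes a basic helix-loop-helix leucine zipper transcription factor that drives cell growth and division. It lies beside a long stretch with few protein-coding genes, a gene desert, and enhancers far out in such stretches are known to act on Myc in several tissues. Ptf1a, a basic helix-loop-helix factor of the pancreas, binds DNA together with an E protein and with Rbpj or Rbpjl, and acinar cells need it to make digestive enzymes. This section gives the binding of Ptf1a in the 2 Mb of mouse chromosome 15 from 61000000 to 63000000 (build mm9), with the Myc gene body near 61817000 to 61822000. The members are the authors' listed Ptf1a sites in this stretch, 45 of 30691 in all, with the reads of both libraries in 1959 bins of 1 kb that held a read and in 40 bins of 50 kb. The rule that picks them uses position and no read count. Distances are counted from 61817000, called the Myc start here, and "after" means higher coordinates, the direction in which Myc is transcribed.

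Ptf1a binding was measured by ChIP-seq, in which fixed chromatin is pulled down with an antibody and its DNA sequenced. The cells were 266.6, and the stated purpose was a comparison with gene expression in embryonic pancreatic buds that have or lack Ptf1a. The 266.6 line comes from a mouse acinar tumour that carried SV40 T antigen driven by an elastase promoter. Both groups came from this line at passage 26, strain C57BL/6 X SJL, fixed with 1% formaldehyde for 10 min. One group was a Ptf1a ChIP library pooled from 2 immunoprecipitations (28502488 placed reads), and the other was input chromatin made without antibody (27959618 placed reads). Each group had 1 library and no replicate, so each test below is between 2 libraries, and the intervals given are for counting error alone. The reads carry no molecular identifiers, and copies made by PCR narrow these intervals further than the molecules would. Genomic reads give no expression level, so the amount of Myc RNA was not measured. No mm9 annotation was used, so sites are not assigned to exons, introns or genes other than the Myc body named above. In RefSeq's gene order for build GRCm38, the gene next after Myc is Pvt1, a long noncoding RNA gene. No other protein-coding gene follows before Gsdmc, a gasdermin gene, and the protein-coding gene before Myc is A1bg.

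Ptf1a sites lay mostly on the far side of Myc. Of the 45 sites, 40 lay after the Myc start and 5 before it, which is 34.5 sites per covered Mb (exact 95% interval 24.7 to 47.0) against 6.24 (2.03 to 14.6). A covered bin is one of 1 kb with at least 1 read in either library, and 1158 kb after and 801 kb before the start were covered. The rate after the start was 5.53 times that before it (2.18 to 18.0). Sites often lay close together and are not independent, so this interval is too narrow. Input depth differed in the same direction but less, at 17.5 input reads per covered kb after the start (17.2 to 17.7) and 14.1 before it (13.8 to 14.3). Per 1000000 input reads there were 1978 sites after and 444 before the start. The 40 sites after the start also held 96.2% of the members' ChIP reads (Wilson 95% interval 95.4 to 96.9%).

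The 5 sites before the start made up 2 pairs and the site next to Myc, and 1 of them reached a height of 50. A pair lay 535 and 531 kb before it, with authors' peak heights of 55 and 21. The height is the whole number that the authors deposited for each span of 100 bp, from 20 to 396 over the list, and its scale is not stated in what was used here. A second pair lay 46.3 and 45.98 kb before the start, with heights of 25 and 24. The longest gap between neighbouring sites, 485 kb, separated these pairs. The fifth site lay just before Myc itself.

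**Figure D1:**
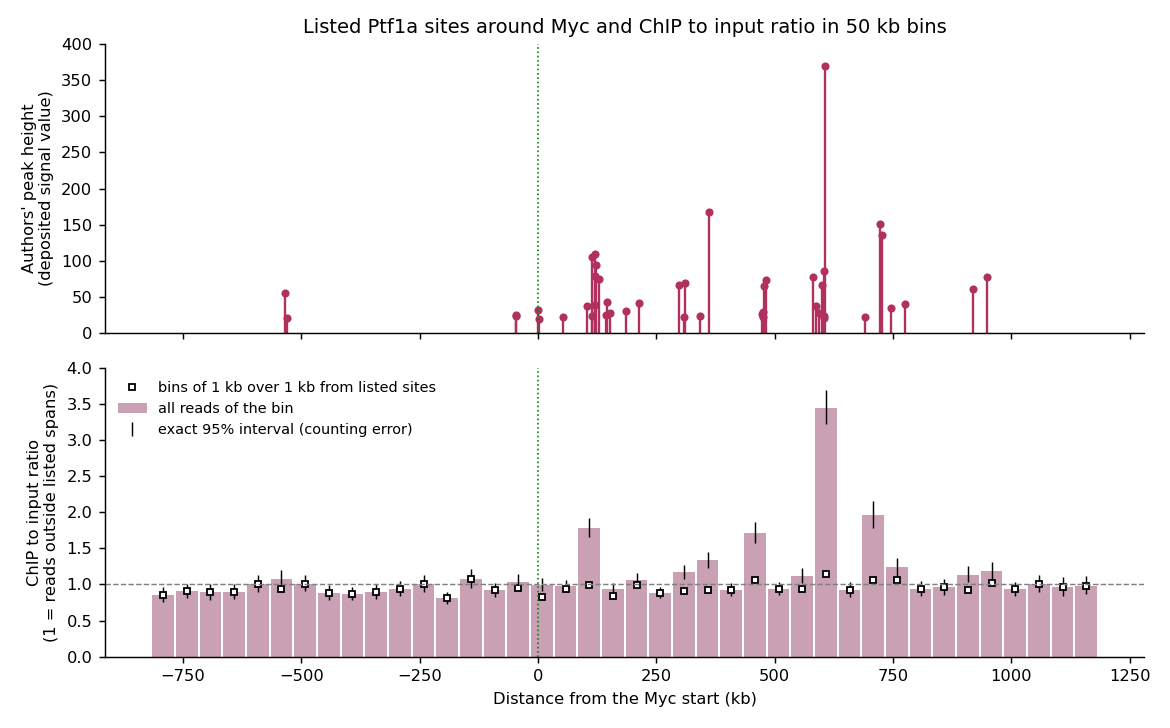
Upper plot: authors' peak height (deposited signal value) of each of the 45 listed sites against its distance from the Myc start in kb (dotted line). Lower plot: ChIP to input ratio in 50 kb bins (bars, with exact 95% intervals for counting error) and the same from 1 kb bins over 1 kb from any listed site (squares). Sites are dense after the start, with the highest at 607 kb (height 369), and the ratio away from listed sites stays between 0.815 and 1.14 in all 40 bins.

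At Myc itself 2 sites were listed, both with heights below the median of 36 over all listed sites. A site lay 411 bp before the Myc start, at 61816589 to 61816688, with a height of 32. Its span held 18 ChIP reads and 3 input reads, a ratio of 6.18 (exact 95% interval 1.80 to 32.7). This ratio is divided by 0.971, the ratio of ChIP to input reads outside all listed spans, so that 1 means no excess. A second site lay inside the Myc body, 1823 bp after the start, at 61818823 to 61818922. It had a height of 20, the lowest in the authors' list, with 11 ChIP reads and 1 input read (ratio 11.3, 1.65 to 488). Both had more ChIP than input reads (exact binomial test, adjusted p = 0.00161 and 0.00671). The listed position is the first base of a span, and ChIP reads are centred on it, so a span holds mainly the right side of each pile. Counted over 100 bp on both sides of that position, the site before the start held 42 ChIP and 4 input reads, and the site in the body held 24 and 3.

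The 1 kb bins around Myc show the same pair of places. The kb that ends at the Myc start held 65 ChIP and 8 input reads (ratio 8.37, 4.004 to 20.2), and the kb from 1 to 2 kb after it held 72 and 21 (ratio 3.53, 2.15 to 6.05). Both passed the test over all 2439473 bins with a read on chromosomes 1 to 19 and X (exact binomial test, adjusted p = 2.58e-10 and 6.23e-06). The kb between them, the start of the Myc body, held 30 ChIP and 20 input reads and did not pass (exact binomial test, adjusted p = 1). From 2 to 3 kb after the start, input was itself high, with 41 input and 48 ChIP reads (ratio 1.21, 0.778 to 1.88). The nearest site beyond the body, 52.4 kb after the start, had 13 ChIP and 9 input reads (ratio 1.49, 0.588 to 3.94) and did not pass (exact binomial test, adjusted p = 0.486). It passed with 100 bp to each side (29 and 14 reads, ratio 2.13, 1.09 to 4.37) and with read ends not moved, so its call depends on how reads are counted.

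**Figure D2:**
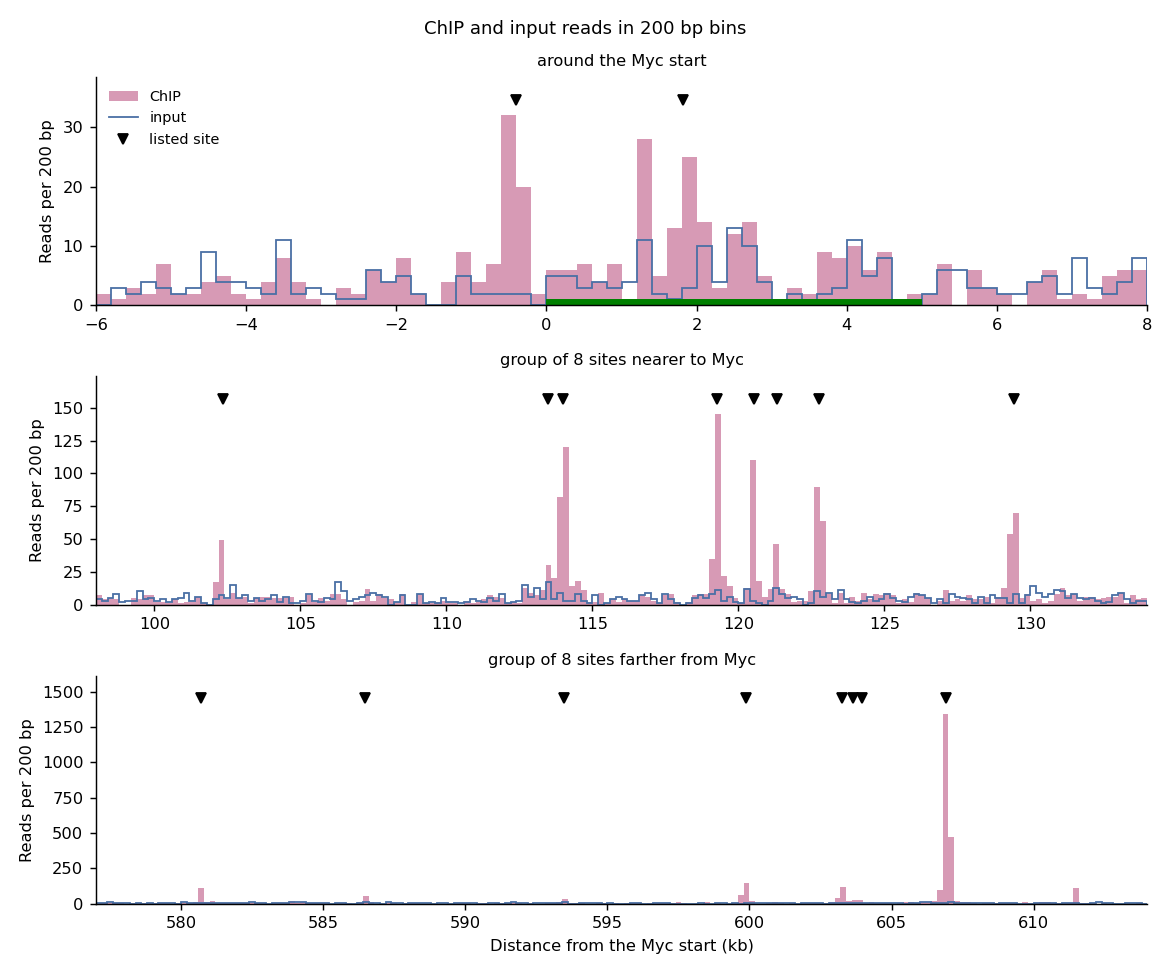
ChIP reads (filled) and input reads (line) in 200 bp bins against distance from the Myc start in kb, around Myc (top, with the Myc body as a bar on the axis) and over the groups of 8 sites nearer to it (middle) and farther from it (bottom). Triangles mark listed sites, and the vertical scales differ. Both Myc sites show more ChIP than input reads, and the site at 607 kb has the most ChIP reads.

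Across the whole stretch, 41 of the 45 sites (91.1%) had more ChIP than input reads, none had fewer and 4 did not pass. Over all 30691 listed sites the same test called 91.6% higher and 0.231% lower, so the members' share is that of the background. The list was made from this ChIP library, so an excess at its sites was largely set by the choice of sites. Heights of the 4 that missed the threshold were 21 to 24. They lay 531 and 45.98 kb before the start and 52.4 and 113 kb after it, and held 12 to 17 ChIP reads and 5 to 9 input reads.

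The site 45.98 kb before the start had 17 ChIP and 9 input reads (ratio 1.95, 0.820 to 4.95). The site 113 kb after it had 12 and 7 (ratio 1.77, 0.641 to 5.29). With 100 bp to each side, all 45 sites passed, as did 97.7% of all listed sites. Against the input density of the surrounding 10 kb all 45 passed as well, with 99.4% of all sites. With read ends not moved, 38 passed, with 82% of all sites, and those that no longer passed lay 308, 343, 472, 593 and 604 kb after the start (heights of 23 to 28). The sites 531 kb before and 52.4 kb after the start passed there instead. With 1 read per position and strand 40 passed, with 90.4% of all sites, and with library totals as the expected ratio 41 passed, also with 90.4%. With the p-value summed over outcomes no more likely than the one seen, 42 passed, with 93.1% of all sites. Of the members with heights of 50 or more all 19 passed, as did 99% of such sites in the list.

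Heights of the members were close to those of the list. The median height was 39 (quartiles 25 and 75), against 35 (25 and 66) over the other 1877 sites of chromosome 15 and 36 (25 and 64) over all sites. Heights of 20 to 29 made up 37.8% of the members and 37.8% of all sites, and 19 members (42.2%) reached 50, against 34.0% of all sites. The median site held 25 ChIP reads, the same as over the whole list, and the lowest and highest members held 10 and 682. The median ratio, with 0.5 reads added to each count, was 10.1 (quartiles 4.46 and 22.5), beside 7.80 over the rest of chromosome 15 and 10.9 over all sites. Pooled over the 45 spans there were 2514 ChIP and 159 input reads, a ratio of 16.3 (13.9 to 19.2). Without the highest site this was 12.3 (10.4 to 14.5).

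**Figure D3:**
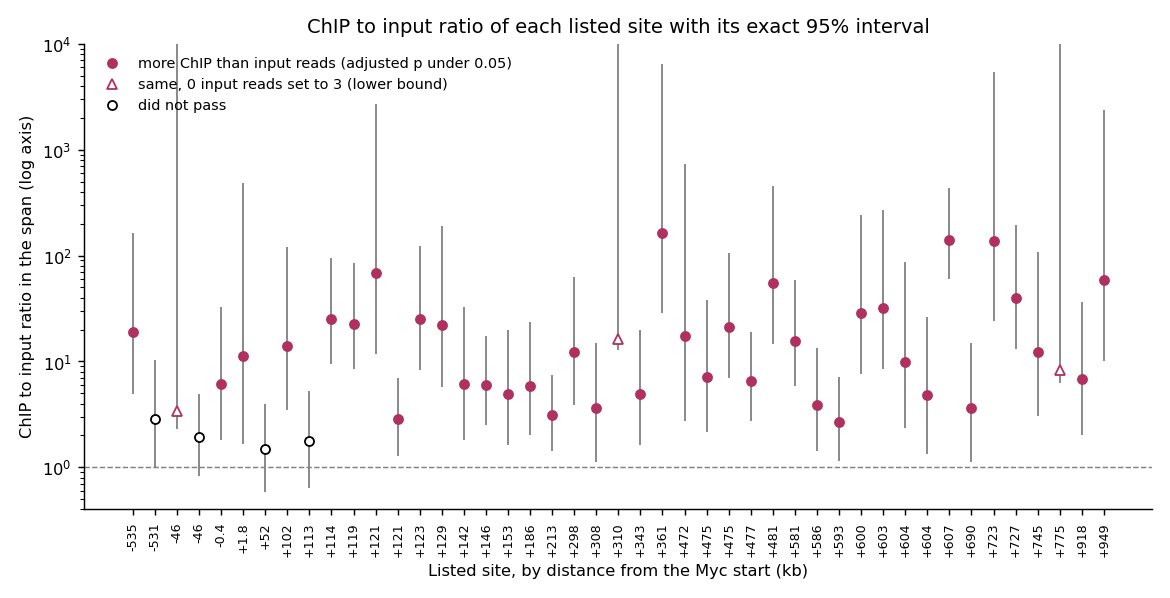
ChIP to input ratio in the span of each of the 45 listed sites on a log axis, in order along the chromosome and labelled by distance from the Myc start in kb, with exact 95% intervals for counting error (cut at the top of the axis). Filled points passed the test, and the 4 open circles did not pass. Open triangles passed with 0 input reads and are drawn with input set to 3 reads, above the lower end of their exact intervals. Where input was above 0 the ratios run from 1.49 to 163.

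A single site 607 kb after the Myc start led the region. Its span, 62423929 to 62424028, held 682 ChIP and 5 input reads, a ratio of 140.5 (59.9 to 434), with adjusted p = 1.42e-196 (exact binomial test). Its height of 369 was above that of 99.97% of listed sites. It held 27.1% of all ChIP reads in the members' spans (Wilson 25.4 to 28.9%), and the 5 sites with the most reads held 47.5%. Many of its reads were repeats: counting each position and strand only once, 189 ChIP reads were left, where the span has room for 200. The ratio was then 41.4 (17.4 to 129), still with 5 input reads. The site is thus near the limit of what distinct reads can show, and its size relative to the others depends on how repeats are counted. Repeats made up 72.3% of ChIP reads in its span, 35.7% over all members' spans and 30.3% over the spans of all listed sites. In the whole ChIP library the share was 10.2%, and in the input it was 3.29%.

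Below it stood 3 sites with heights of 136 to 167. The site 361 kb after the start, at 62177733 to 62177832, had a height of 167, with 158 ChIP reads and 1 input read (ratio 163, lower limit 28.8). The site 723 kb after it, at 62539838 to 62539937, held 133 reads in ChIP and 1 in input (ratio 137, lower limit 24.2). Its neighbour 4264 bp farther on, at 62544102 to 62544201, had 115 and 3 (ratio 39.5, 13.2 to 194). The intervals of these 3 overlap each other and that of the site at 607 kb, so their order by ratio is not resolved. Their order by ChIP reads alone is that of their heights. With each position and strand counted only once, the ratios at 361, 723 and 727 kb were lower, at 111, 92.1 and 28.5.

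Other sites with a firm excess were spread over the same side. The site 481 kb after the start, at 62298274 to 62298373, had 106 ChIP and 2 input reads (ratio 54.6, 14.7 to 457). The site 310 kb after the start, at 62126896 to 62126995, had 48 ChIP reads and none in the input. With the input of that span set to a floor of 3 reads, its ratio was 16.5. The exact lower limit of its ratio, comparable with those of the other sites, was 12.9. The last site of the region, 949 kb after the start at 62766203 to 62766302, held 57 reads in ChIP and 1 in input (ratio 58.7, lower limit 10.1). With 100 bp to each side the last site held 106 and 5, and its ratio fell to 21.8 (9.07 to 68.6). Sizes of this kind rest on few input reads, since 9 members held 0 or 1.

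Many members lay close together, as sites do elsewhere on the chromosome. Of the 45, 35 (77.8%) had a listed neighbour within 12.5 kb, against 72.9% over the rest of chromosome 15 and 60.5% over all sites. Within 5 kb the shares were 62.2% of members and 56.1% over the rest of chromosome 15, and within 25 kb the order turned, with 84.4% and 86.1%. Joined at 12.5 kb they made 9 groups of 2 or more, among them 3 of 5 or more, and 10 lone sites. The median gap between neighbouring members was 6.56 kb, and 6 neighbouring pairs lay within 1 kb of each other. All 9 groups had more ChIP than input reads over the spans of their sites, which was largely set by the choice of sites from this ChIP library. The ratios of a whole stretch given below count the gaps between sites too, so they are lower than those of the spans.

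The group nearer to Myc among the 2 largest ran from 102 to 130 kb after the start (61919353 to 61946522), with 8 sites in 27.2 kb. Its stretch held 1547 ChIP and 640 input reads (ratio 2.49, 2.27 to 2.73), and its spans 432 and 32 (ratio 13.9, 9.70 to 20.6). It had no dominant site. At 114 kb the span held 98 ChIP and 4 input reads (height 105, ratio 25.2, 9.55 to 94.4), and at 119 kb 88 and 4 (height 110, ratio 22.7, 8.54 to 85.0). At 120.5 kb the span held 66 ChIP reads and 1 input read (height 79), and at 123 kb 73 and 3 (height 94, ratio 25.1, 8.24 to 124). The intervals of these 4 sites overlap, so they are not told apart.

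The other 4 sites of the group were lower. The span at 129 kb held 43 ChIP and 2 input reads (height 75), and that at 102 kb held 27 and 2 (height 38). The span at 121.3 kb held 25 ChIP and 9 input reads (height 39, ratio 2.86, 1.29 to 6.96), the lowest ratio in the group among those that passed. The eighth, at 113 kb, is the one above that did not pass, and lies 525 bp from its neighbour of height 105.

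The group farther from Myc ran from 581 to 607 kb after the start (62397714 to 62424028), also with 8 sites, in 26.3 kb, and all 8 passed. Its stretch held 2824 ChIP and 617 input reads (ratio 4.71, 4.32 to 5.15), and its spans 934 and 31 (ratio 31.0, 21.7 to 45.9). This group held 37.2% of the members' ChIP reads, most of them at the site at 607 kb. The next in ChIP reads were at 603 kb, 581 kb and 600 kb, with heights of 86, 78 and 67. At 603 kb (62420251 to 62420350) the span held 62 ChIP and 2 input reads (ratio 31.9, 8.47 to 269). At 581 kb it held 61 and 4 (ratio 15.7, 5.83 to 59.5), and at 600 kb 56 and 2 (ratio 28.8, 7.62 to 244).

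The remaining 4 sites of this group had heights of 21 to 38 and ratios of 2.70 to 9.78. A set of 3 listed positions at 603.3, 603.6 and 604.0 kb lay 393 and 307 bp apart. Whether such close positions are separate sites was not tested.

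The remaining groups were smaller. From 472 to 481 kb, 5 sites in 9.27 kb held 244 ChIP and 15 input reads in their spans (ratio 16.8, 9.96 to 30.4). One of them, at 475.4 kb, had a listed height of 23 but 62 ChIP reads in its span, 50 of them distinct, and is named because of that value. From 142 to 153 kb, 3 sites with heights of 25 to 43 held 72 and 13 (ratio 5.70, 3.13 to 11.2). Over the stretch of those 3, ChIP exceeded input only slightly, with 364 and 318 reads (ratio 1.18, 1.01 to 1.37). From 298 to 310 kb, 3 sites held 98 and 7 (ratio 14.4, 6.74 to 36.8). The pair at 723 and 727 kb held 248 ChIP and 4 input reads in its spans (ratio 63.8, 24.6 to 236). Over its stretch of 4.36 kb it held 498 and 82 (ratio 6.25, 4.94 to 7.9998). These stretches hold gaps of different length, so their ratios are not set against each other.

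ChIP reads were centred on the listed positions. The median of the ChIP reads within 150 bp lay within 25 bp of the listed position at 42 of the 45 sites, and between -42.5 and 27 bp from it over all 45. That window is centred on the listed position and the list came from this library, so a median near it was partly set in advance. Input reads were also denser at the sites. Within 100 bp of the listed positions input density was 1.68 times that of the surrounding 10 kb (1.501 to 1.88), against 1.99 (1.97 to 2.02) over the rest of chromosome 15 and 1.72 over all sites. Across the 45 members height followed the number of distinct ChIP reads within 100 bp (Spearman rho = 0.92, a description only, since both come from the same reads).

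In 1 kb bins, tested at the same expected ratio, 46 of 1959 bins (2.35%) had more ChIP than input reads. Over all bins with a read the same test called 1.4%, and over the rest of chromosome 15 it called 1.69%. With 1 read per position and strand 45 bins were called (1.33% of all bins), with read ends not moved 47 (1.38%), and with library totals 43 (1.31%). Among bins with at least 10 reads 47 were called (1.73%), and with the other p-value rule 47 (1.44%). Of the 46, 42 lay after the Myc start and 4 before it. The bin of 38 of the 45 listed sites (84.4%) was called, among them all 19 with heights of 50 or more. Over the whole list the share was 83.1%, and over the rest of chromosome 15 it was 74.7%. For heights of 50 or more these shares were 98.9% and 99.7%, so the members' share is near the background. In the stretch 2 bins had fewer ChIP than input reads by the same test, which called 0.168% of all bins lower. They lay 196 to 197 kb after the start (7 ChIP and 31 input reads) and 630 to 631 kb after it (20 and 51).

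There were 7 called bins with no listed site within 1 kb. The most ChIP reads were in the bin 611 to 612 kb after the start, 4.6 kb beyond the highest site, with 129 ChIP and 20 input reads (ratio 6.64, 4.13 to 11.2). Its densest 200 bp (62428411 to 62428610) held 113 and 7. The bin 207 to 208 kb after the start held 124 and 11 (ratio 11.6, 6.27 to 23.9), with 105 and 2 in its densest 200 bp (62024311 to 62024510). In distinct ChIP reads these stretches, with 86 and 87, were above 33 and 34 of the 45 listed sites counted within 100 bp. They were picked as the densest of their bins, so this places them by size and does not test them. The next were 453 to 454 kb after the start (87 and 28), 37 to 38 kb before it (64 and 20), and 94 to 95 kb (47 and 18) and 1054 to 1055 kb (47 and 16) after it. Why these places are not in the authors' list is not stated in what was used here. The share of called bins without a listed site was not counted elsewhere, so 7 of 46 has no background beside it.

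The last comparison was of input depth, which would rise where the cells carry extra copies of DNA. The stretch as a whole was not deeper than its chromosome. It held 31488 input reads, or 16.1 per covered kb (15.9 to 16.3), against 16.6 (16.5 to 16.6) over the rest of chromosome 15, a ratio of 0.970 (0.959 to 0.981). By medians of 1 kb bins the order turned, with 16 reads in the stretch and 15 in the rest, a ratio of 1.07. ChIP reads over 1 kb from listed sites gave 1.03 (1.01 to 1.04). Among 50 windows of 2 Mb along the chromosome, this one included, 25 had lower input depth, and their depths ran from 8.30 to 28.7 reads per covered kb.

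Relative to all other autosomes, with 11.7 input reads per covered kb, the stretch was 1.38 times as deep (1.36 to 1.39) and the rest of chromosome 15 was 1.42 times as deep. The mean depth was thus also higher over the rest of the chromosome, though its 2 Mb windows ran below that of the other autosomes as well as above it. Copy number, base composition and how well reads can be placed cannot be told apart with 1 input library and no reference genome at hand.

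Within the stretch, input depth rose around Myc and after it. The 50 kb bin that holds Myc had 19.5 input reads per covered kb (18.3 to 20.7), 1.28 times the median of 15.2 over 1977 such bins of the chromosome. The deepest bins were those from 133 to 183 kb after the start with 26.9 (25.5 to 28.4), 83 to 133 kb with 24.0 (22.7 to 25.4) and 183 to 233 kb with 23.2 (21.9 to 24.6). The deepest was 1.77 times the median, a level above that of 90.0% of the chromosome's bins. Among 44394 such bins of the other autosomes it was above 99.2%. The bin that holds Myc was above 69.7% of the chromosome's bins and above 93.4% of those of the other autosomes. The shallowest lay from 1083 to 1133 kb after the start with 9.64 (8.80 to 10.5), 717 to 667 kb before it with 10.9 (10.0 to 11.9) and 1033 to 1083 kb after it with 11.6 (10.7 to 12.6). These 6 bins were picked as the extremes of 40, so their spread is a description.

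A run of 15 bins, from 117 kb before to 633 kb after the start, stayed above the chromosome's median. The run was picked after its values were seen. It had 20.2 input reads per covered kb (19.9 to 20.5), against 13.6 (13.4 to 13.8) in the other 25 bins, a ratio of 1.49 (1.46 to 1.52). Over 1 kb from any listed site the ratio was 1.46 in the input library (1.42 to 1.49) and 1.45 in the ChIP library (1.41 to 1.48). These ratios describe a selected run. The run held 36 of the 45 sites, and the other 25 bins held 9. Along chromosome 15 there were 23 runs at least as long, this one included, and the longest had 106 bins.

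Depth rose over several bins before and after Myc and dropped at the far end of the run. The largest change between adjacent bins in input over 1 kb from sites came 633 kb after the start, from 21.3 to 14.1 reads per covered kb, a 1.51-fold drop. It was larger than 97.3% of 1945 such changes along the chromosome, but it was picked as the largest in the stretch, so this rank does not set it apart. Across the 40 bins, input depth over 1 kb from sites had a Spearman correlation of 0.94 with ChIP depth there and of 0.60 with the number of listed sites. These are descriptions, since neighbouring bins and both libraries share the same cells and sequence. The part of base composition or copy number in the rise was not tested.

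**Figure D4:**
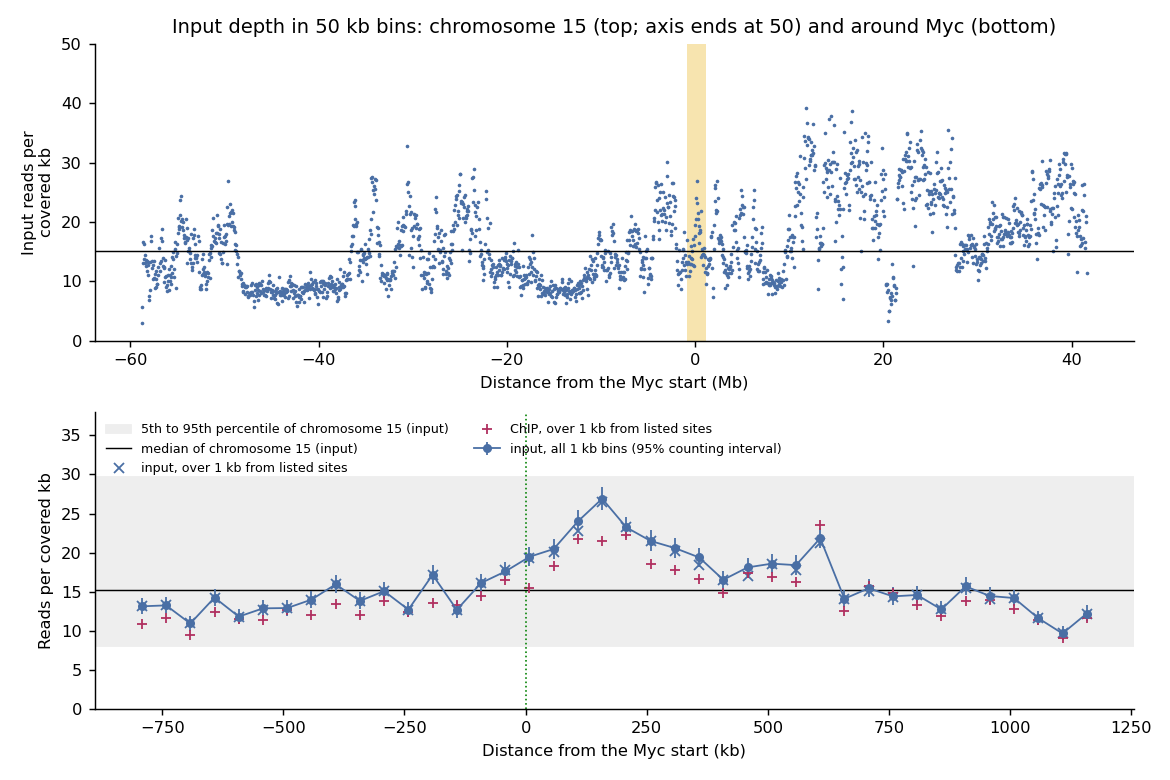
Input reads per covered kb in 50 kb bins along chromosome 15 (top; the 2 Mb stretch shaded, line at the median of 15.2) and within the stretch (bottom; points with 95% counting intervals), against distance from the Myc start. Crosses and plus signs give input and ChIP depth over 1 kb from listed sites, and the grey band spans the 5th to 95th percentile of the chromosome, 7.996 to 29.7. The rise to 26.9 after Myc stays inside that band and is seen in both libraries.

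Site density was also near that of the chromosome. The stretch had 23.0 sites per covered Mb (16.8 to 30.7) and the rest of chromosome 15 had 19.6 (18.7 to 20.5), a ratio of 1.17 whose interval of 0.853 to 1.58 includes 1. For sites with heights of 50 or more the ratio was 1.46 (0.872 to 2.30). Of the 50 windows of 2 Mb, 34 had fewer than 45 sites, with a median of 30.5 and a range of 0 to 133. Away from listed sites, ChIP to input was 0.942 (0.926 to 0.958) in the stretch and 0.902 (0.899 to 0.904) over the rest of the chromosome. Within 1 kb of listed sites it was 3.51 (3.36 to 3.67) in the stretch and 2.64 (2.62 to 2.65) over the rest of the chromosome. The site at 607 kb carries most of this gap. Without the 4 bins within 1 kb of it, which held 2090 ChIP and 115 input reads, the ratio in the stretch was 2.80 (2.67 to 2.93), a setting added after seeing the data. The highest sites of the rest of the chromosome were not left out, so this comparison is one-sided.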

How the data were processed

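Placed reads of 37 bp were deposited by the authors with a count of 1 on each line, and per the submitters' processing notes the build was mm9. For the aligner and read filters, nothing is given in the sources used here. The authors also deposited 1 list of Ptf1a peaks with a signal value for each span of 100 bp, per the file headers. Its caller and threshold are likewise not stated there. From these, each read's 5′ end was moved 73 bp downstream and reads were counted in spans, 1 kb bins and 50 kb bins. ChIP and input counts were compared with an exact binomial test whose smaller tail was doubled, at the expected ratio of 0.971. Doubling the smaller tail was chosen after results were seen, because its 28112 called sites matched an earlier count from these data, where the p-value summed over outcomes no more likely gave 28558. Benjamini-Hochberg adjustment ran over all 30691 sites, or over all 1 kb bins with a read, with a threshold of 0.05. Intervals are exact at 95% unless named as Wilson. A 50 kb bin was compared along chromosome 15 if at least 40 kb of it was covered. The named sites were the 12 whose ratio had the highest lower limit, the 3 lowest by ratio, those in or next to Myc and those of the largest groups (2 were tied). Unlisted bins named are the 5 with the most ChIP reads, and the bin at 1054 kb, tied with the fifth. The distinct-read, unmoved-end, 100 bp, 10 kb, library-total and stricter-list settings were alternatives. The members and lists were chosen with earlier results of these data known. The test was tested on simulated data. Python 3.11.15, numpy 2.4.6, scipy 1.17.1, pandas 2.3.3 and matplotlib 3.10.9 were used.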

Additional observations from a re-analysis of the deposited data

How the results depend on the processing

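The count of 41 sites with more ChIP than input reads was 40 with 1 read per position and strand, 41 with library totals as the expected ratio, and 42 with the p-value summed over outcomes no more likely than the one seen, a setting added after seeing the data. It was lowest, at 38, with read ends not moved, and 45 both with 100 bp to each side and against the input density of the surrounding 10 kb. In the stricter list of heights of 50 or more it was 19, since that list has only 19 members here. The count of 46 called 1 kb bins stayed between 43 and 47 in the 5 settings tried. The input depth of the stretch relative to the rest of chromosome 15 was 0.970, and 0.975 with 1 read per position and strand. It was 1.07 by medians, 0.982 over 1 kb from listed sites, 0.991 without bins above the 99th percentile and 1.03 in the ChIP library over 1 kb from listed sites. Against all other autosomes it was 1.38. The ratio of site density was 1.21 per input read. Without the highest site, also a setting added after seeing the data, the ratio pooled over spans went from 16.3 to 12.3 and that within 1 kb of sites from 3.51 to 2.80. Sites with a close neighbour numbered 35 within 12.5 kb, 28 within 5 kb and 38 within 25 kb, and 14 among the 19 sites of height 50 or more. No called site was lower in ChIP under any of the 6 settings tried per site. No paired analysis was possible because each group has 1 library. At a median of 3 input reads per span, ratios of single sites are poorly resolved.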
